A study of Mus musculus with 6 samples.

Results

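The genes described here were 36 genes of glycolysis and of the response to low oxygen, out of 40564 genes in the count tables. They were taken by name: glycolytic enzymes, glucose and lactate transporters, regulators of glycolytic flux, hypoxia-inducible factors (HIFs), the hydroxylases that control HIFs, and HIF target genes. RNA came from untreated mouse bronchoalveolar lavage cells, cells flushed from the airways and alveoli, and was measured by bulk RNA sequencing in 6 libraries. The Cis Stat6 KO group is labelled a double knockout, lacking CIS (the product of Cish, a STAT5-induced inhibitor of cytokine receptor signalling) and STAT6, the transcription factor of interleukin 4 and interleukin 13. The Cis KO group lacks CIS, and the third group is WT, with 2 libraries in each group. The labels do not say how the alleles were made, the strain or age of the animals, or whether a library is 1 animal or a pool. The p-values therefore measure spread between samples that may be technical replicates.

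Glycolysis splits glucose into pyruvate in the cytosol, and lactate dehydrogenase turns pyruvate into lactate when it is not burnt in mitochondria. When oxygen is plentiful, the EGLN prolyl hydroxylases mark HIF-1α (gene Hif1a) and HIF-2α (gene Epas1) for destruction, so HIF activity is set largely at the level of protein, and stabilised HIFs bind the core letters ACGTG or GCGTG near target genes. Alveolar macrophages, the main cells of lavage fluid in an untreated lung, live in contact with air and are known to rely more on mitochondrial oxidation than on glycolysis.

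In outline, most glycolytic genes differed by less than 1 log2 unit between the genotypes, and a few HIF-linked genes differed by more. Car9, carbonic anhydrase IX, a membrane enzyme that acidifies the outside of the cell and is among the best-known HIF targets, was near the floor of detection in WT and higher in every library of both mutants, more so in Cis Stat6 KO than in Cis KO. Epas1 was high and Hif1a low in Cis KO, while in Cis Stat6 KO Epas1 was nearer to WT and Hif1a stood above WT. None of the 35 members that could be tested passed the threshold of 0.05 on edgeR's adjusted p in any comparison, and DESeq2 called a few of them, so the sections that follow give values for every library.

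The letters below show the HIF core where it stands in the start regions of Car9 and of 6 other members described below, so that its setting can be seen. Car9 aside, they were picked for an unadjusted edgeR p under 0.05 in these data and a core before the start. Of these, Slc2a1, Hk2, Bnip3, Pgam1 and P4ha1 were higher in both Cis Stat6 KO libraries than in both Cis KO libraries. Among members with the core that are not shown, Hif1a, Hk1, Hk3 and Mxi1 were higher in the same way, and Ldha was lower. The mutants overlapped for Aldoa, Ddit4, Egln1, Egln3, Higd1a, P4ha2, Pfkfb3, Pgk1, Pkm and Slc16a3. The share of all genes that were higher in this way was not counted. For Ankrd37 the libraries of the mutants overlapped, with a log2 difference of -0.10 without Cis KO replicate 2. The window of Gapdh holds the core as well. Gapdh was lower in Cis Stat6 KO than in Cis KO, but by only -0.18 without that library. Whether the core goes with these differences was not tested. The letters are RefSeq sequences of build GRCm38.p6, each 30 bases long and read 5′ to 3′ on the gene's strand. The core ACGTG, or its reverse complement CACGT, is in capitals. The Car9 core begins 18 bases before the RefSeq start (chr4:43506996-43507025, plus strand) and lies within the span that the count files give for the gene. The Slc2a1 core begins 36 bases before the start (chr4:119108697-119108726, plus strand), the nearer of the 2 cores of Hk2 52 bases (chr6:82774489-82774518, minus strand; the other, at 226 bases, is not shown), that of Bnip3 107 bases (chr7:138909596-138909625, minus strand) and that of Pgam1 114 bases (chr19:41911745-41911774, plus strand). For P4ha1 the distance is 16 bases (chr10:59323268-59323297, plus strand) and for Ankrd37 6 bases (chr8:45999839-45999868, minus strand).
Car9: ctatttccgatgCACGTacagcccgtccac
Slc2a1: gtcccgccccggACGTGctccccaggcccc
Hk2: aatgagcacatcCACGTcactgtccggggc
Bnip3: cgcacgcgccgcACGTGccacacgctcccc
Pgam1: cgctccttgcttACGTGcgctccgtgactg
P4ha1: tgtgacagagcgCACGTagcgagggctgcg
Ankrd37: cagtgtttgggtACGTGaggccgcagcggg

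The start windows, 250 bases before to 50 after each start, were searched on both strands for ACGTG and for GCGTG. The first can lie on both strands at once, as in the Bnip3 line above, and the 2 motifs can share bases. RefSeq windows were found for 32 of the 36 members, 45 windows in all. Epas1, Slc2a3, Ndrg1 and Bnip3l had none. ACGTG was found in 26 of the 45 windows (57.8%), those of 23 members, against 19.6% of all 32851 windows of the same length. GCGTG was found in 23 windows (51.1%), against 32.4% of all windows. The member windows were also richer in G and C, with 63.2% against 53.8%, and held a median of 23 CG steps against 7, and both motifs contain a CG step. The STAT motif, half-sites TTC and GAA with 3 bases of any kind between them, was found in 1 member window (2.22%, Kdm3a), against 8.3% of all windows, and its form with 1 more base between, which STAT6 prefers, in 5 (11.1%), against 6.95%. Since the members include genes chosen by name as HIF targets, an excess of the HIF core is in part built into the list. These are matches of letters in a window, with no measure of binding.

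Library totals lay between 50762354 and 65937118 counts. Both targeted genes were low where the labels say so: Cish stood at 1.72 and 5.04 CPM (normalised read count, TMM-scaled to a common library total) in Cis Stat6 KO, 4.34 and 3.52 in Cis KO, and 46.2 and 56.2 in WT, and Stat6 at 31.6 and 25.5 CPM in Cis Stat6 KO, 264 and 221 in Cis KO, and 233 and 227 in WT. All 15 alveolar macrophage markers were detected in every library. Cis KO replicate 2 stood apart from the other 5 libraries. Haemoglobin genes took 3.29% of its counts, against at most 0.0366% elsewhere, and 15855 genes had a count, against 19641 to 20431 elsewhere. Its summed erythroid markers came to 38672 CPM with 12 of the 13 markers detected, against 15.8 to 354 CPM and 6 to 8 markers in the others, where Rhag and Car1 were at 0. Its summed neutrophil markers came to 822 CPM (175 to 302 elsewhere) and its epithelial markers to 1438 CPM (406 to 853 elsewhere). The neutrophil sum hides single markers: by sign, 7 of 10 were higher and 3 lower in Cis Stat6 KO against WT. S100a9 stood at 27.7 and 72.3 CPM in Cis Stat6 KO, 0.438 and 133 in Cis KO, and 1.35 and 1.24 in WT. Csf3r stood at 64.2 and 53.9 CPM in Cis Stat6 KO, 61.8 and 61.1 in Cis KO, and 116 and 113 in WT. The part of neutrophils in the member values was not tested. Summed B cell, T cell, dendritic, monocyte and endothelial or stromal markers lay at 232 to 296, 17.8 to 64.8, 3.64 to 14.7, 137 to 231 and 1.84 to 5.39 CPM over the 6 libraries. The main results that involve Cis KO are therefore given with and without this library. Without it the single Cis KO library left is assumed to vary like the other groups.

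Per length, glycolytic enzymes and lactate dehydrogenase were the most abundant members. On the FPKM scale (read counts divided by gene length and library total), Aldoa, the aldolase that splits the six-carbon sugar, had the highest level, with a lowest, median and highest library of 440, 474 and 629 FPKM. Pkm, pyruvate kinase, followed at 165, 185 and 227 FPKM, and Ldha, the lactate dehydrogenase subunit, at 127, 137 and 165 FPKM. Aldoa did not overlap Pkm in any library, whereas the ranges of Pkm and Ldha touched. Pgam1, Gpi1, Pgk1, Tpi1 and Eno1, which carry the middle steps, had medians of 92.1, 81.6, 74.2, 66.5 and 65.2 FPKM, and their ranges over the libraries overlapped, so their order is not resolved.

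The entry steps were far less abundant. Among hexokinases, which trap glucose in the cell, Hk3 led with 15.3, 17.7 and 23.1 FPKM (lowest, median, highest), above Hk1 at 2.62, 3.16 and 3.78 FPKM and Hk2 at 1.64, 3.14 and 4.90 FPKM, and the last 2 overlapped. The glucose transporter Slc2a1 (GLUT1) had a median of 5.54 FPKM and Slc2a3 (GLUT3) of 0.345 FPKM. Phosphofructokinase subunits Pfkp and Pfkl had medians of 11.3 and 8.53 FPKM with overlapping ranges. Of the bifunctional enzymes that set the level of its activator fructose 2,6-bisphosphate, Pfkfb4 stood at 19.0 to 31.0 FPKM and Pfkfb3 at 1.40 to 4.96 FPKM. Slc16a3 (MCT4), the lactate exporter, had a median of 10.6 FPKM and Pdk1, the kinase that holds pyruvate out of mitochondria, of 4.12 FPKM.

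Within the HIF pathway, Hif1a had a median of 31.7 FPKM and Epas1 of 1.13 FPKM, and the hydroxylase Egln1 (PHD2) of 11.2 FPKM against 0.50 FPKM for Egln3 (PHD3). The mitophagy receptors Bnip3l and Bnip3 had medians of 41.0 and 7.66 FPKM. Car9, with 0.05, 1.12 and 2.60 FPKM, stood in the lower part of this order in every genotype. P4ha2, a collagen prolyl hydroxylase subunit, never passed 0.12 FPKM. Adm, which encodes the vasodilator peptide adrenomedullin, had 0 and 3 counts in Cis Stat6 KO, none in Cis KO, and 4 and 9 in WT, and was left out by the filter on low counts.

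Car9 (ENSMUSG00000028463, mm10 chr4:43506966-43513729, plus strand) had 428 and 301 counts in the Cis Stat6 KO libraries, 202 and 121 in the Cis KO libraries, and 7 and 17 in the WT libraries. As CPM these were 6.18 and 6.19 in Cis Stat6 KO, 3.16 and 2.76 in Cis KO, and 0.121 and 0.248 in WT. The groups did not overlap in any pair, and the 2 libraries of each mutant lay close together. The mean was 6.19 ± 0.00398 CPM in Cis Stat6 KO, 2.96 ± 0.279 in Cis KO and 0.185 ± 0.0903 in WT (SD, n = 2 each), so the mean in Cis Stat6 KO was 33.5 times and the mean in Cis KO 16.0 times that in WT.

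In edgeR the log2 fold change of Car9 was 5.04 ± 0.59 (SE) in Cis Stat6 KO against WT, with an adjusted p of 0.0512, and 3.98 ± 0.56 in Cis KO against WT, with an adjusted p of 0.0641. Both just missed the threshold of 0.05. DESeq2 called Car9 in both, with adjusted p of 2.21e-15 and 1.44e-09. Cis Stat6 KO stood 1.06 ± 0.49 above Cis KO on the log2 scale, with adjusted p-values of 0.302 (edgeR) and 0.152 (DESeq2), so the step between the mutants was not called by either tool. Leaving out either Cis KO library brought the edgeR adjusted p under the threshold: in Cis Stat6 KO against WT it was 0.00384 without replicate 1 and 0.00223 without replicate 2, and in Cis KO against WT 0.00257 without replicate 1 (log2 fold change 3.86) and 0.0106 without replicate 2 (4.07). With any WT or Cis Stat6 KO library left out, edgeR did not call Car9 in either comparison.

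By size of fold change Car9 ranked 160 of 16765 tested genes in Cis Stat6 KO against WT and 206 in Cis KO against WT. In these bulk samples more cells that carry Car9 and more Car9 RNA per cell cannot be told apart. The summed alveolar macrophage markers were 33901 and 43472 CPM in Cis Stat6 KO, 20892 and 16653 in Cis KO, and 17179 and 25402 in WT. Most of the difference lay in 1 marker, Chil3, with 22278 and 31128 CPM in Cis Stat6 KO, 11570 and 6881 in Cis KO, and 8777 and 15011 in WT. The epithelial markers, of which all 13 were detected in each library, summed to 554 and 406 CPM in Cis Stat6 KO, 853 and 1438 in Cis KO, and 627 and 623 in WT. This sum is mostly Krt19, and single markers differed in direction. The epithelial cadherin Cdh1 had 75.4 and 59.6 CPM in Cis Stat6 KO, 55.0 and 68.6 in Cis KO, and 31.2 and 37.0 in WT. Epcam went the other way, with 7.46 and 3.15 CPM in Cis Stat6 KO, 3.36 and 4.41 in Cis KO, and 28.9 and 22.6 in WT. By sign alone, 2 of the 13 were higher and 11 lower in Cis Stat6 KO against WT. In Cis KO against WT 7 were higher and 6 lower. The part of these cell types in the result was not tested. The antisense gene Gm12454 overlaps Car9 and had 53 and 22 counts in Cis Stat6 KO, 32 and 0 in Cis KO, and 8 and 0 in WT. Since it is not known whether counting used strand, reads of these genes cannot be told apart. With the counts of both added together, the fold change in Cis Stat6 KO against WT was 4.73, with an edgeR adjusted p of 0.0372.

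**Figure D1:**
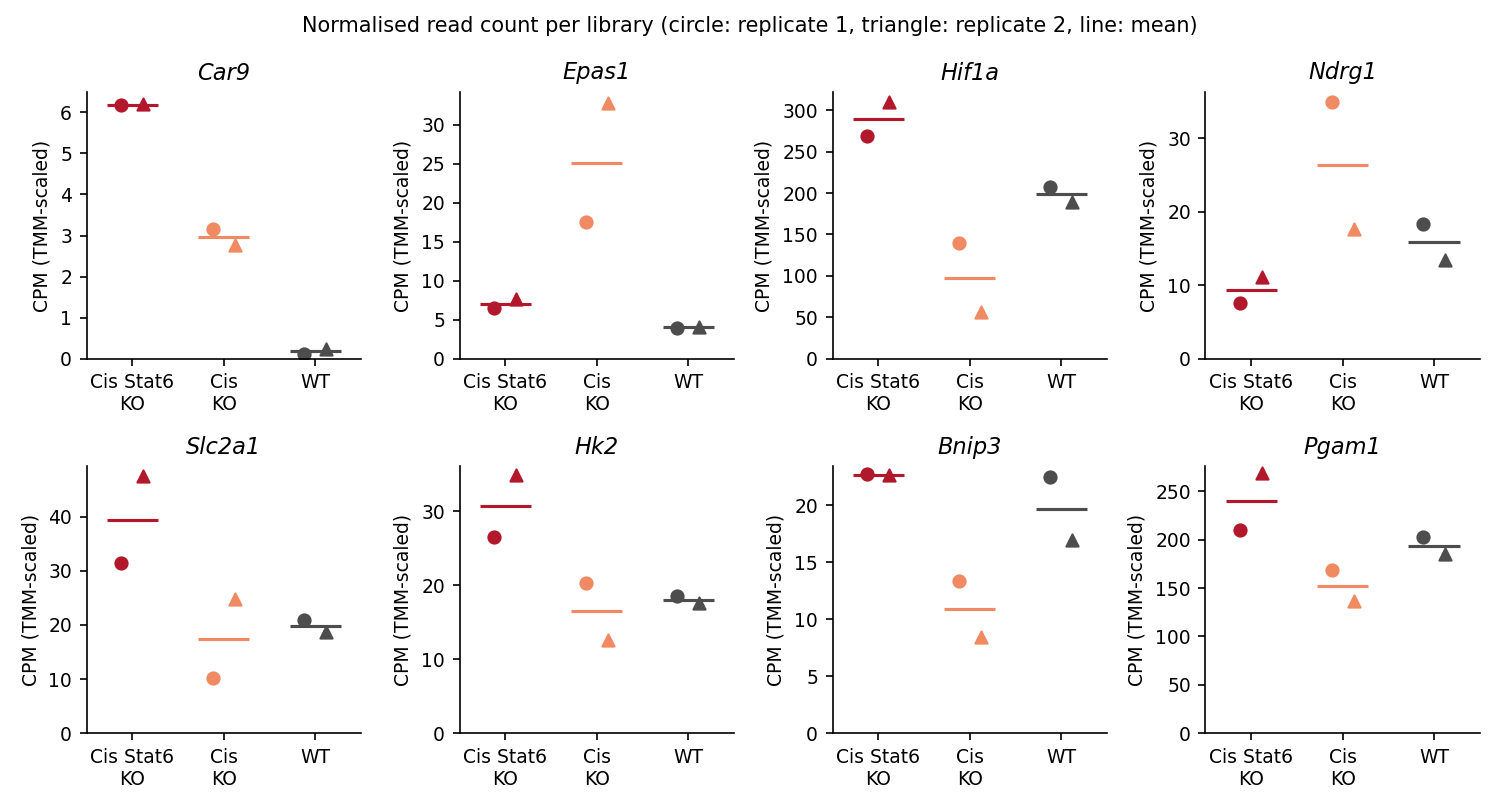
Normalised read count (TMM-scaled CPM, linear axes from 0) of 8 members in each library; circles are replicate 1, triangles replicate 2, and lines the mean of 2 libraries. Car9 lies at 6.18 and 6.19 in Cis Stat6 KO, near 3 in Cis KO and below 0.25 in WT, while Epas1 peaks and Hif1a dips in Cis KO.

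The HIF factor genes stood opposite to each other in Cis KO. Epas1 (ENSMUSG00000024140, mm10 chr17:86753700-86833410, plus strand), which encodes HIF-2α, stood at 6.47 and 7.67 CPM in Cis Stat6 KO, 17.5 and 32.8 in Cis KO, and 3.99 and 4.11 in WT. Both Cis KO libraries were above all others, and both Cis Stat6 KO libraries were above both WT libraries. Hif1a (ENSMUSG00000021109, mm10 chr12:73901375-73947530, plus strand), which encodes HIF-1α, stood at 269 and 309 CPM in Cis Stat6 KO, 140 and 56.1 in Cis KO, and 208 and 189 in WT. Here both Cis KO libraries were below all others, and replicate 2 was the lower of them by far.

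Epas1 was 2.63 ± 0.36 (log2, SE) higher in Cis KO against WT, with an edgeR adjusted p of 0.0624, and differed by -1.83 ± 0.35 in Cis Stat6 KO against Cis KO, with an edgeR adjusted p of 0.109. DESeq2 called both, with adjusted p of 1.67e-08 and 0.000222. Leaving out Cis KO replicate 2 gave 2.12, with an edgeR adjusted p of 0.012, and -1.32, with 0.0439. Leaving out Cis KO replicate 1 gave 3.00 and -2.20, and edgeR called both there too. In Cis Stat6 KO against WT the difference was 0.80 ± 0.35, with an edgeR adjusted p of 0.966.

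Hif1a differed by 1.56 ± 0.40 (log2, SE) in Cis Stat6 KO against Cis KO, with adjusted p-values of 0.168 (edgeR) and 0.00226 (DESeq2). It differed by -1.02 ± 0.40 in Cis KO against WT, with an edgeR adjusted p of 0.437. With Cis KO replicate 2 left out the values were 1.04, which edgeR then called with an adjusted p of 0.024, and -0.50, which it did not call, with 0.325. With replicate 1 left out they were 2.37 and -1.84, with edgeR adjusted p of 0.000742 and 0.00142. Against WT, Cis Stat6 KO differed by 0.54 ± 0.39, with both libraries above both WT libraries and an edgeR adjusted p of 1. The size of the Hif1a dip in Cis KO thus rests largely on replicate 2, and the shift of Epas1 was more than 1 log2 unit with either library.

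As a ratio of levels per length, Hif1a exceeded Epas1 39.6-fold and 38.5-fold in the Cis Stat6 KO libraries, 7.58-fold and 1.62-fold in the Cis KO libraries, and 49.8-fold and 44.2-fold in the WT libraries. Epas1 made up 2.46% and 2.53% of the summed FPKM of both genes in Cis Stat6 KO, 11.7% and 38.1% in Cis KO, and 1.97% and 2.21% in WT. The Cis KO libraries differed from each other in this share more than Cis Stat6 KO differed from WT, and neither overlapped the other groups.

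**Figure D2:**
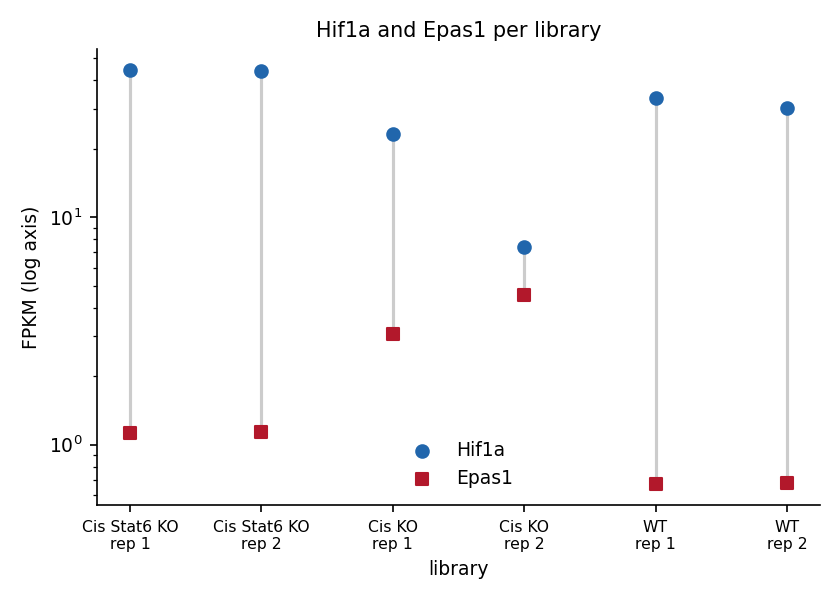
FPKM of Hif1a (circles) and Epas1 (squares) in each library on a log axis, joined by a line whose length is their ratio. The line is shortest in the 2 Cis KO libraries, with ratios of 7.58 and 1.62, and of similar length in the 4 others.

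Of the hydroxylase genes, Egln1 stayed between 40.8 and 51.1 CPM in all 6 libraries. Egln3 had 0.954 and 1.62 CPM in Cis Stat6 KO, 1.34 and 0.434 in Cis KO, and 2.48 and 1.45 in WT. Both Cis KO libraries lay below both WT libraries, a log2 difference of -1.14 ± 0.80 (SE) that edgeR did not call, with an adjusted p of 0.56, and that was -0.54 without Cis KO replicate 2. Cis Stat6 KO overlapped both other groups.

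Among the other HIF targets, Ndrg1 and Bnip3 were called between the mutants by DESeq2. Ndrg1, a stress-responsive gene induced in hypoxia, stood at 7.56 and 11.1 CPM in Cis Stat6 KO, 34.9 and 17.7 in Cis KO, and 18.3 and 13.4 in WT. It was lowest in Cis Stat6 KO, and Cis KO overlapped WT. The difference of Cis Stat6 KO against Cis KO was -1.50 ± 0.39 (log2, SE), with adjusted p-values of 0.173 (edgeR) and 0.00772 (DESeq2), and edgeR called it without Cis KO replicate 1 (-0.92) and without replicate 2 (-1.92). Bnip3, whose product directs mitochondria to autophagy, stood at 22.7 and 22.7 CPM in Cis Stat6 KO, 13.3 and 8.40 in Cis KO, and 22.4 and 16.9 in WT. Both Cis KO libraries were below all others. Bnip3 was 1.06 ± 0.29 higher in Cis Stat6 KO against Cis KO, with adjusted p-values of 0.186 (edgeR) and 0.0228 (DESeq2), and 0.76 higher without Cis KO replicate 2, where edgeR did not call it. In Cis KO against WT Bnip3 differed by -0.85 ± 0.29, with an edgeR adjusted p of 0.431, and by -0.56 without that library. Without Cis KO replicate 1 the values were 1.44 and -1.24, and edgeR called both, with adjusted p of 0.00506 and 0.00986.

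The related receptor Bnip3l showed the same order with a smaller step, at 191 and 204 CPM in Cis Stat6 KO, 146 and 127 in Cis KO, and 154 and 195 in WT. Mxi1, which encodes a MAX partner that opposes MYC, stood at 95.6 and 81.6 CPM in Cis Stat6 KO, 66.6 and 51.5 in Cis KO, and 61.1 and 83.8 in WT. P4ha1, the collagen prolyl hydroxylase subunit expressed here, stood at 64.9 and 69.2 CPM in Cis Stat6 KO, 53.2 and 46.3 in Cis KO, and 61.6 and 59.3 in WT. Each of these 3 was higher in both Cis Stat6 KO libraries than in both Cis KO libraries, by 0.53, 0.58 and 0.43 on the log2 scale, and none was called by edgeR or DESeq2. Without Cis KO replicate 1 the differences were 0.65, 0.79 and 0.54, and edgeR called all 3, with adjusted p of 0.035, 0.0365 and 0.0347. Without Cis KO replicate 2 they were 0.43, 0.40 and 0.32, and edgeR called none, with adjusted p of 0.294, 0.426 and 0.354. Ankrd37, an ankyrin-repeat HIF target, was scarce, with 0.130 and 0.761 CPM in Cis Stat6 KO, 0.469 and 2.19 in Cis KO, and 0.069 and 0.161 in WT. Its log2 difference of 3.50 ± 1.40 in Cis KO against WT had an edgeR adjusted p of 0.437 and was 2.00 without Cis KO replicate 2 and 4.20 without replicate 1, where edgeR called it with an adjusted p of 0.0364. Kdm3a and Higd1a had their extreme value in Cis KO replicate 2 as well, with 11.5 CPM of Kdm3a, a histone demethylase, against 26.5 to 36.8 elsewhere, and 27.9 CPM of Higd1a, a mitochondrial protein, against 11.4 to 16.9 elsewhere. Ddit4, an inhibitor of mTORC1, ranged between 0.614 and 1.97 CPM with overlapping groups.

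Of the genes of glucose entry, Slc2a1, Hk2 and Hk3 stood highest in Cis Stat6 KO. Slc2a1, the glucose transporter GLUT1, stood at 31.4 and 47.4 CPM in Cis Stat6 KO, 10.2 and 24.7 in Cis KO, and 20.8 and 18.7 in WT. Hk2, the inducible hexokinase of the outer mitochondrial membrane, stood at 26.5 and 35.0 CPM in Cis Stat6 KO, 20.3 and 12.6 in Cis KO, and 18.5 and 17.6 in WT. Hk3, the most abundant hexokinase here, stood at 87.6 and 85.4 CPM in Cis Stat6 KO, 57.8 and 83.7 in Cis KO, and 69.0 and 60.2 in WT. For all 3 genes the Cis Stat6 KO libraries were above the other 4, and Cis KO spread on both sides of WT. Slc2a1 differed by 1.18 ± 0.43 (log2, SE) in Cis Stat6 KO against Cis KO and by 0.99 ± 0.43 against WT, with edgeR adjusted p of 0.24 and 0.967. Without Cis KO replicate 2, which holds the higher of the Cis KO values, the first became 1.94, with an edgeR adjusted p of 0.0156, and without replicate 1 it was 0.68, which edgeR did not call, with 0.0871. Hk2 differed by 0.90 ± 0.29 and 0.77 ± 0.29 in the same comparisons, with edgeR adjusted p of 0.218 and 0.855, and by 0.59 against Cis KO without that library. When Cis KO replicate 1 was left out, the Hk2 difference against Cis KO was 1.29, with an edgeR adjusted p of 0.00604. The difference of Hk3 against WT was 0.42 ± 0.23, with an edgeR adjusted p of 1. Slc2a3 had 2.69 and 4.19 CPM in Cis Stat6 KO, 1.42 and 11.6 in Cis KO, and 2.59 and 0.628 in WT, with the highest value in Cis KO replicate 2.

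The later glycolytic steps differed little. Pgam1, phosphoglycerate mutase, stood at 210 and 269 CPM in Cis Stat6 KO, 169 and 136 in Cis KO, and 202 and 185 in WT. It was 0.65 ± 0.20 (log2, SE) higher in Cis Stat6 KO against Cis KO, with adjusted p-values of 0.213 (edgeR) and 0.0453 (DESeq2), and 0.49 higher without Cis KO replicate 2, where edgeR did not call it (0.24). Gpi1, which turns glucose 6-phosphate into fructose 6-phosphate, stood in the reverse order, at 496 and 450 CPM in Cis Stat6 KO, 580 and 794 in Cis KO, and 589 and 529 in WT, a log2 difference of -0.54 ± 0.21 against Cis KO that was -0.30 without Cis KO replicate 2. Tpi1, triose phosphate isomerase, stood at 193 and 213 CPM in Cis Stat6 KO, 217 and 297 in Cis KO, and 180 and 183 in WT, and was 0.50 ± 0.20 higher in Cis KO against WT, or 0.26 without that library. The lactate exporter gene Slc16a3 stood at 67.5 and 56.5 CPM in Cis Stat6 KO, 62.0 and 96.9 in Cis KO, and 54.7 and 43.4 in WT, with both mutants above WT. Its log2 difference of 0.70 ± 0.27 in Cis KO against WT was 0.34 without Cis KO replicate 2. Cis KO replicate 2 alone gave calls in edgeR for each of these 4 differences, with 0.82 for Pgam1, -0.74 for Gpi1, 0.69 for Tpi1 and 0.97 for Slc16a3 and adjusted p of 0.0161, 0.0118, 0.0121 and 0.0114.

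The remaining enzymes and regulators (Aldoa, Eno1, Hk1, Hk3, Pfkl, Pfkp, Pgk1, Pkm, Ldha, Pdk1, Pfkfb3 and Pfkfb4) had an unadjusted edgeR p above 0.05 in all 3 comparisons. Ldha, for example, stood at 501 and 530 CPM in Cis Stat6 KO, 558 and 593 in Cis KO, and 443 and 481 in WT. Pkm stood at 1040 and 995 CPM in Cis Stat6 KO, 839 and 1094 in Cis KO, and 1201 and 1072 in WT. Aldoa stood at 1441 and 1532 CPM in Cis Stat6 KO, 1356 and 2364 in Cis KO, and 1646 and 1454 in WT, with 5 libraries close together and Cis KO replicate 2 above them. A second annotated Aldoa locus had 12 counts or fewer in each library and was not tested.

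Gapdh and Eno1 have near-identical copies with which they may share reads, and are uncertain. Copies were also listed for Aldoa, Ldha, Pgam1, Pgk1 and Tpi1, and for each gene these held at most 10.6 CPM in any library. Whether reads that fit a gene and its copies were lost, which could alter the order by FPKM, was not tested. The Gapdh gene stood at 46.5 and 46.2 CPM in Cis Stat6 KO, 52.0 and 121 in Cis KO, and 38.5 and 37.2 in WT. Its 3 listed pseudogene copies held more reads than the gene in every library, at 77.5 and 91.4 CPM in Cis Stat6 KO, 91.3 and 231 in Cis KO, and 92.4 and 83.0 in WT. The log2 difference of Gapdh in Cis KO against WT was 1.19 ± 0.37, with an edgeR adjusted p of 0.417, and was 0.46 without Cis KO replicate 2. In Cis Stat6 KO against Cis KO it was -0.90 ± 0.37, and -0.18 without that library. Without Cis KO replicate 1 the values were 1.66 and -1.37, and edgeR called both, with adjusted p of 0.00116 and 0.00128. Eno1 and its copy Eno1b together came to 510 and 470 CPM in Cis Stat6 KO, 487 and 848 in Cis KO, and 514 and 503 in WT, so 5 of the 6 sums lay within a narrow range.

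**Figure D3:**
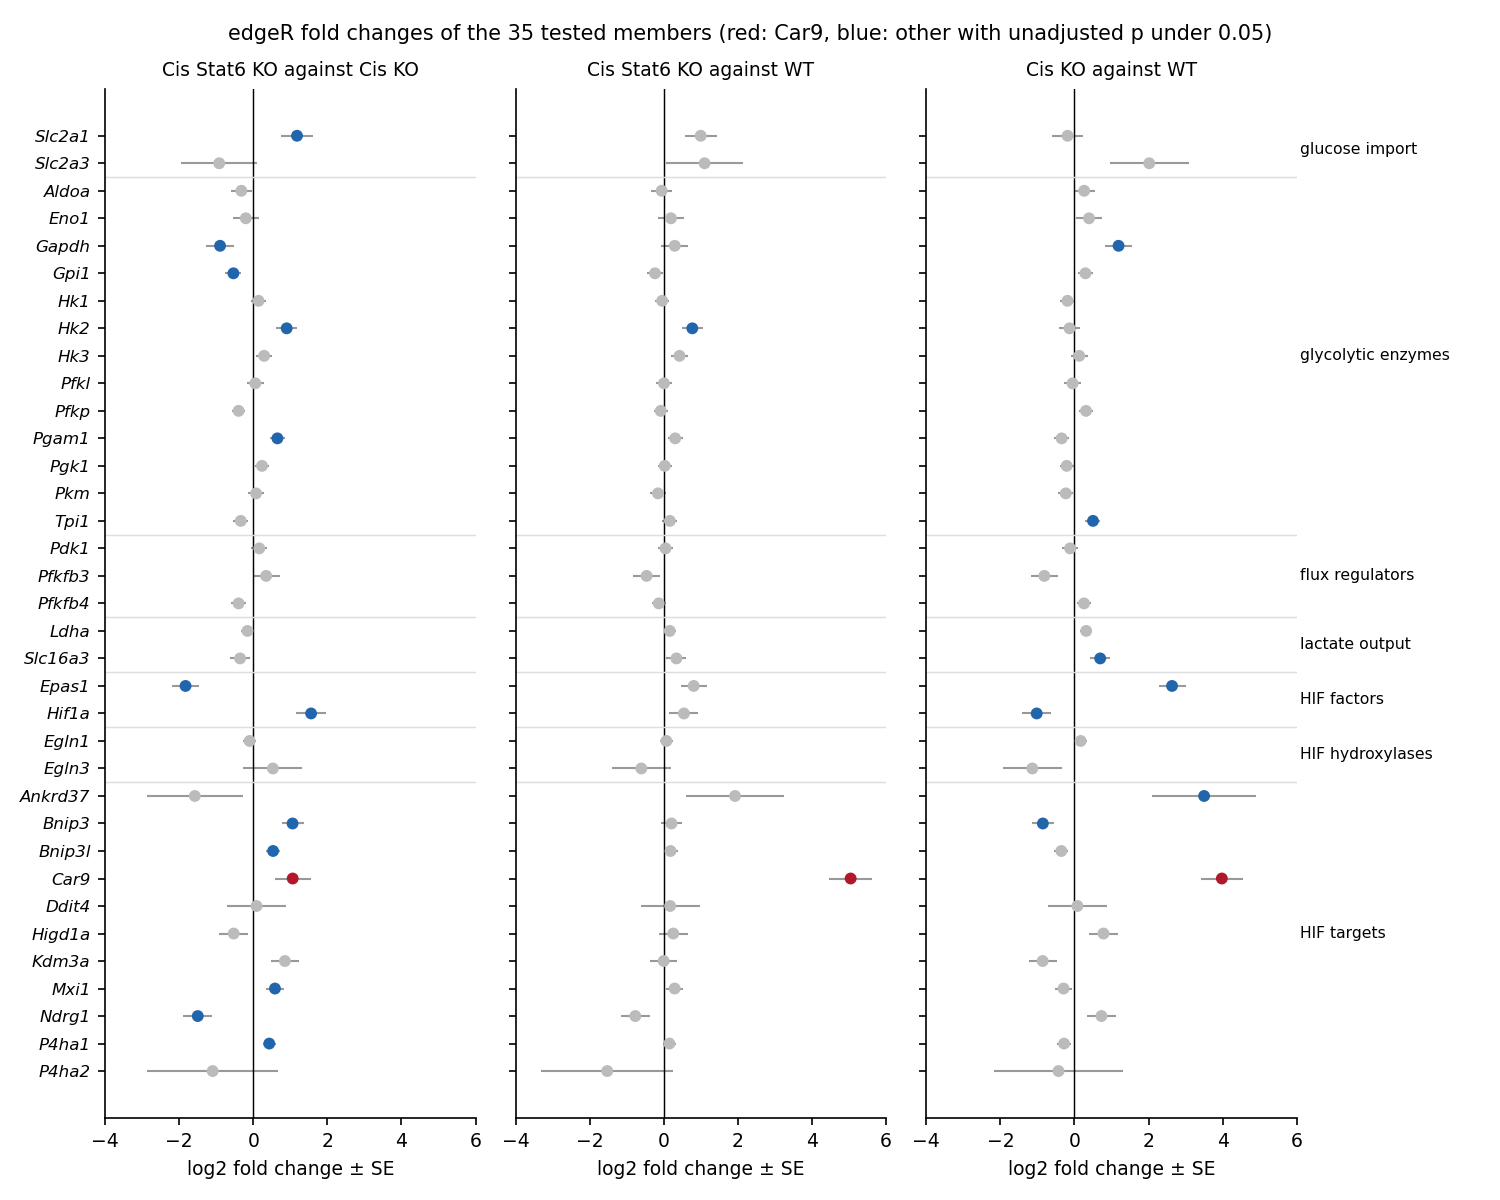
Log2 fold change with its standard error (edgeR, 2 libraries per group) of the 35 tested members, by role, in the 3 comparisons; red is Car9, blue marks other members with an unadjusted p under 0.05, grey the rest. Car9 lies at 5.04 and 3.98 against WT, and most other members lie within 1 log2 unit of 0.

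Counted over the group, Cis KO against WT gave 0 of 35 tested members past the adjusted threshold in edgeR, against 0.274% of all 16765 tested genes. At an unadjusted p under 0.05, 6 members were higher and 2 lower, where 5.51% of all genes were higher and 5.59% lower. The 6 were Car9, Epas1, Gapdh, Slc16a3, Ankrd37 and Tpi1, and the 2 were Hif1a and Bnip3. DESeq2 called 2 members, Car9 and Epas1, both higher, against 3.67% of all genes it tested. The members' median log2 fold change was 0.081, and 0.015 without Car9, beside -0.054 for all tested genes. The members' signs were 18 positive and 17 negative, beside 7843 positive and 8894 negative for all tested genes. With Cis KO replicate 2 as the single Cis KO library, edgeR called 14 members and 5349 of all genes. The 14 were Aldoa, Ankrd37, Bnip3, Car9, Eno1, Epas1, Gapdh, Hif1a, Higd1a, Kdm3a, Pfkfb3, Slc16a3, Slc2a3 and Tpi1. With replicate 1 as the single Cis KO library, it called 2, Car9 and Epas1, and 188 of all genes.

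Cis Stat6 KO against Cis KO gave 0 called members in edgeR, against 0.358% of all tested genes. At an unadjusted p under 0.05, 8 were higher (Hif1a, Bnip3, Pgam1, Hk2, Bnip3l, Slc2a1, Mxi1 and P4ha1) and 4 lower (Epas1, Ndrg1, Gpi1 and Gapdh), where 9.29% of all genes were higher and 8.99% lower. DESeq2 called 5, with Hif1a, Bnip3 and Pgam1 higher and Epas1 and Ndrg1 lower, against 12% of all genes it tested. The median was 0.074, beside 0.054 for all tested genes. This comparison shares the Cis KO libraries with the one before it. With Cis KO replicate 2 alone, edgeR called 18 members and 5999 of all genes. The 18 were the 12 just named other than Slc2a1, together with Aldoa, Eno1, Higd1a, Kdm3a, Pfkfb3, Slc16a3 and Tpi1. With replicate 1 alone, it called 4, Epas1, Hif1a, Ndrg1 and Slc2a1, and 495 of all genes.

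Cis Stat6 KO against WT gave 0 called members in edgeR, against 0.131% of all tested genes. At an unadjusted p under 0.05, 2 were higher, Car9 and Hk2, and 0 lower, where 3.06% of all genes were higher and 2.3% lower. DESeq2 called Car9 alone, against 2.05% of all genes it tested. The median was 0.16, beside -0.0027 for all tested genes, with 24 positive and 11 negative signs among the members. Of all tested genes, 8316 were positive and 8441 negative. Car9 was the 1 member edgeR called in this comparison when either Cis KO library was left out, beside 307 and 350 of all genes without replicate 1 or 2.

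Against WT, each of the 34 other tested members differed by less than Car9 in both mutants. For Cis Stat6 KO against WT, 31 of them were within 1 log2 unit of 0, and they ranged between -1.53 and 1.92. In Cis KO against WT 28 were within 1 log2 unit and they ranged between -1.14 and 3.50, the last being the scarce Ankrd37. In Cis Stat6 KO against Cis KO Car9 stood at 1.06. Of the 34, 27 were within 1 log2 unit there, and the 34 ranged between -1.83 and 1.56. Epas1, Ankrd37, Hif1a, Ndrg1, Slc2a1 and P4ha2 differed by more than Car9 in size. Most of the 16765 tested genes lay within 1 log2 unit as well, so these counts alone do not set the members apart. Ranked from the highest fold change, 0.994 stood at 1309 and -0.772 at 15055 in Cis Stat6 KO against WT. Between the mutants 0.985 stood at 2733 and -0.921 at 14618. In Cis KO against WT 0.972 stood at 1719 and -0.998 at 14456.

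**Figure D4:**
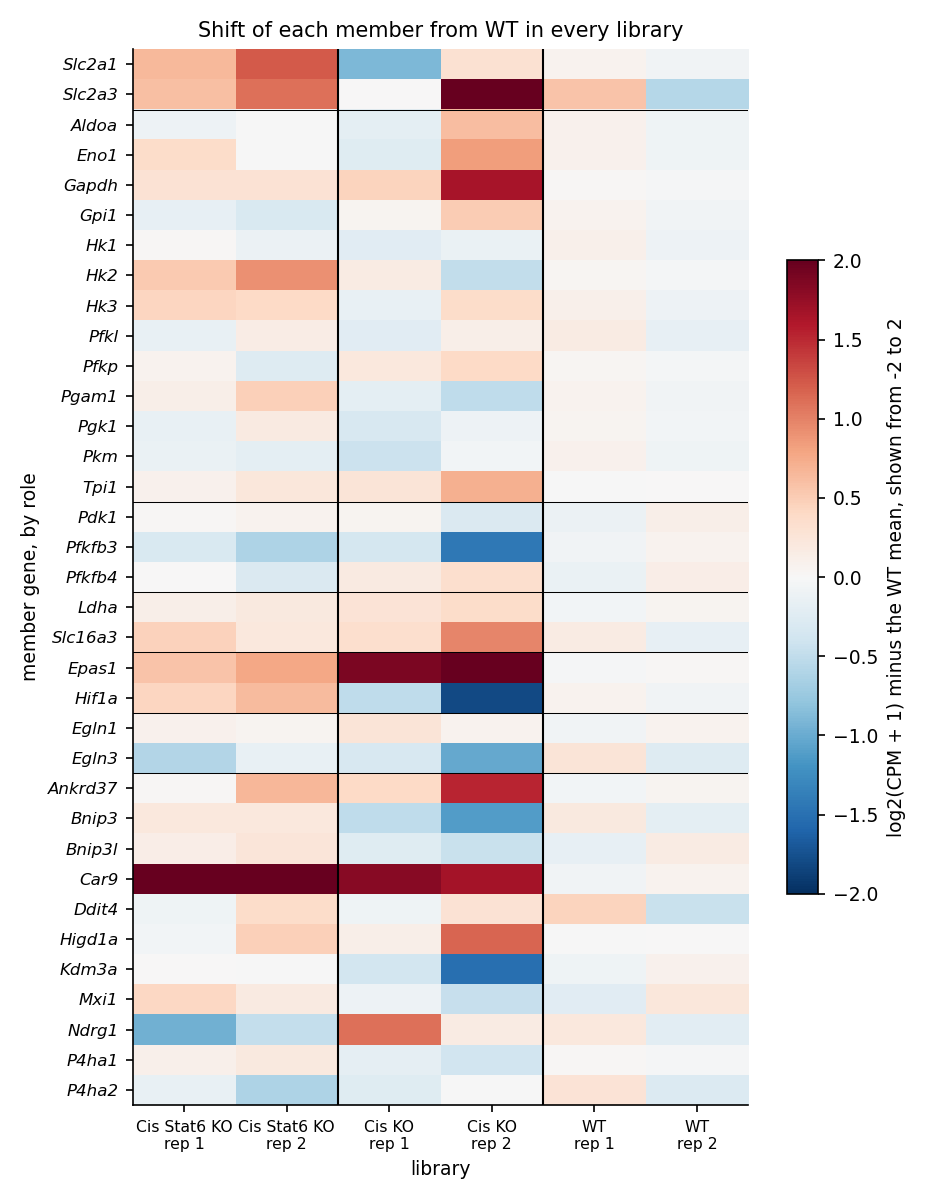
Shift of each tested member from the WT mean in every library, as log2(CPM + 1), with members grouped by role and colours limited to 2 log2 units either way; adding 1 shrinks the shift of scarce genes. The row of Car9 is deep red in the 4 mutant libraries, and Cis KO replicate 2 is the column with the strongest colours.

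Other genes of the same pathways, from lists chosen with earlier results of these data known, were compared in the same fit. Of all tested genes, 3.06% were higher and 2.3% lower at an unadjusted p under 0.05 in Cis Stat6 KO against WT. The shares were 9.29% and 8.99% in Cis Stat6 KO against Cis KO, and 5.51% and 5.59% in Cis KO against WT. Of 39 other glycolysis and pyruvate genes 31 were tested, and 0 were called by edgeR in each of the 3 comparisons, with 3 higher and 2 lower at an unadjusted p under 0.05 in Cis Stat6 KO against WT, 1 and 5 in Cis Stat6 KO against Cis KO, and 2 and 0 in Cis KO against WT. Mpc1, a subunit of the carrier that brings pyruvate into mitochondria, had 128 and 183 CPM in Cis Stat6 KO, 91.0 and 173 in Cis KO, and 44.5 and 42.2 in WT. Both mutants lay above WT, with log2 differences of 1.84 ± 0.34 and 1.61 ± 0.34 against WT and adjusted p of 0.197 and 0.205 in edgeR and 5.53e-05 and 0.000563 in DESeq2. In edgeR without Cis KO replicate 1 the adjusted p was 0.00502 and 0.00174, and without replicate 2 it was 0.00331 in Cis Stat6 KO against WT, while Cis KO against WT was then not called (1.07, adjusted p 0.0757). Bpgm, the bisphosphoglycerate mutase of red cells, had 158 CPM in Cis KO replicate 2 and 9.31 to 14.2 in the other libraries. Of 10 pentose phosphate genes all were tested and 0 were called by edgeR, with 0 higher and 0 lower at an unadjusted p under 0.05 in Cis Stat6 KO against WT, 1 and 1 in Cis Stat6 KO against Cis KO, and 1 and 0 in Cis KO against WT.

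Of 46 other hypoxia-linked genes 38 were tested. Hmox1, the haem-degrading oxygenase, fell by 2.22 ± 0.22 (log2, SE) in Cis KO against WT, with an edgeR adjusted p of 0.0268, and was the 1 gene of this list called in that comparison. The call was lost when either WT library (-2.03 without replicate 1, -2.40 without replicate 2) or either Cis Stat6 KO library (-2.23 without each) was left out, with edgeR adjusted p of 0.158, 0.106, 0.0848 and 0.0843. It had 1262 and 1469 CPM in Cis Stat6 KO, 465 and 436 in Cis KO, and 2373 and 1837 in WT, so that Cis Stat6 KO lay between the others. Between Cis Stat6 KO and Cis KO no gene of the list was called by edgeR, Hmox1 differed by 1.60 ± 0.22 with an adjusted p of 0.0523 (0.00224 and 0.0127 without Cis KO replicate 1 or 2), and 8 genes were higher and 3 lower at an unadjusted p under 0.05. For Cis Stat6 KO against WT none was called by edgeR, with 1 higher and 2 lower at that level. Of all tested genes, 9.29% were higher and 8.99% lower at that level between the mutants, and 3.06% and 2.3% in Cis Stat6 KO against WT. In Cis KO against WT, where Hmox1 was called, edgeR called 0.274% of all tested genes.

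Of 16 carbonic anhydrase genes, Car9 included, 10 were tested and none was called by edgeR. Car4, a membrane-anchored carbonic anhydrase, was far more abundant than Car9 in counts, with 873 and 870 CPM in Cis Stat6 KO, 637 and 1227 in Cis KO, and 368 and 442 in WT. It was 1.11 ± 0.32 (log2, SE) and 1.20 ± 0.32 higher than in WT in Cis Stat6 KO and Cis KO, with adjusted p of 0.57 and 0.353 in edgeR and 0.0496 and 0.0117 in DESeq2. With Cis KO replicate 1 left out the edgeR adjusted p was 0.0143 and 0.00171, and with replicate 2 left out it was 0.00959 in Cis Stat6 KO against WT, while Cis KO against WT was then not called (0.65, adjusted p 0.158). Car13, a cytosolic form, was lowest in Cis KO, with 22.7 and 34.2 CPM in Cis Stat6 KO, 10.7 and 5.30 in Cis KO, and 16.5 and 15.5 in WT.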

How the data were processed

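The authors deposited, for each of 6 libraries, raw counts per gene and FPKM, per the file headers. The counts are whole reads and were not normalised. Genome build mm10 is named in the submitters' processing notes. The aligner, the counting tool and strandedness were not given in the sources used here. Genes with overlapping, antisense or near-identical partners are therefore uncertain. All labels carry 1 date.

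Counts of all 6 libraries entered 1 edgeR 4.0.16 fit in R 4.3.3 (TMM, filterByExpr, genotype as the factor, glmQLFit and glmQLFTest), which tested 16765 genes. P-values were two-sided and Benjamini-Hochberg adjusted over all of them, and "called" means an adjusted p under 0.05. FPKM, from the deposited tables, was used for levels between genes. Standard errors are the fold change over the square root of F. The 36 member symbols covered 37 rows, of which 35 were tested. The fit was checked on simulated data. The common biological coefficient of variation, the spread between libraries, was 50.3%, with 3 residual degrees of freedom. With library totals of at least 50762354 counts, this spread is larger than counting error for all but very scarce genes.

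The members, lists and named genes were chosen with earlier results of these data known. Named with values in every library were Car9, Hif1a, Epas1, and each member with an unadjusted p under 0.05 or left out by the filter, with further examples picked after their values were seen. Alternatives were DESeq2 1.42.0, RLE scaling, limma 3.58.1 (voom with quality weights, and log2 FPKM plus 1 or 0.1), other filters, only the groups compared, abundant genes removed, a replicate block and each library left out.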

Additional observations from a re-analysis of the deposited data

How the results depend on the processing

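The fold changes of members with an unadjusted p under 0.05, and of Car9, Epas1 and Hif1a, kept their sign under each alternative run. Other members did not: without Cis KO replicate 2, Slc2a3 (2.02 with all libraries, -0.17 without it), Eno1, Aldoa, Hk3, Pdk1, Hk2 and Ddit4 changed sign in Cis KO against WT, and Slc2a3 (-0.92 and 1.26), Higd1a, Aldoa, Pfkfb3, Pdk1, Egln3 and Eno1 in Cis Stat6 KO against Cis KO. With all libraries edgeR called 0 members in each comparison. In Cis Stat6 KO against WT the count was 1 with DESeq2, without a filter, with only the 2 groups compared, with abundant genes removed, with log2(FPKM + 1), with log2(FPKM + 0.1) and with copies summed (chosen after seeing the data), 2 in limma-voom with quality weights, and 0 to 1 when 1 library was left out. In Cis Stat6 KO against Cis KO it was 5 with DESeq2, 8 without a filter, and 0 to 18 when 1 library was left out, with 18 without Cis KO replicate 1 and 4 without replicate 2. In Cis KO against WT it was 2 with DESeq2, 5 without a filter, 1 in limma-voom with quality weights, 1 with log2(FPKM + 1), and 0 to 14 when 1 library was left out, with 14 without Cis KO replicate 1 and 2 without replicate 2. The causes were not tested.

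The fold change of Car9 in Cis Stat6 KO against WT passed the threshold at 5.05 in DESeq2, 5.05 in limma-voom with quality weights, 5.03 without a filter, 5.03 with only the 2 groups compared, 5.04 with abundant genes removed, 1.67 with log2(FPKM + 1), 3.90 with log2(FPKM + 0.1), and 4.73 with copies summed. With 1 library left out the fold change of Car9 ranged over 4.62 to 5.65, and only some of these fits passed. In Cis KO against WT it passed at 4.00 in DESeq2, 3.97 without a filter, and at 3.86 and 4.07 without Cis KO replicate 1 or 2, within 3.56 to 4.59 when any 1 library was left out. Over the alternatives its adjusted p ranged over 2.21e-15 to 0.43 in the first of these comparisons and 1.44e-09 to 0.549 in the second. For Epas1 it ranged over 7.24e-09 to 0.451 in Cis KO against WT and 0.000115 to 0.683 in Cis Stat6 KO against Cis KO, and for Hif1a over 1.24e-07 to 0.73 in Cis Stat6 KO against Cis KO. The call of Hmox1 in Cis KO against WT (6.22e-22 to 0.161) was lost with only the 2 groups compared (-2.22), with log2(FPKM + 1) and no filter (-2.32), and with a replicate block (-2.22, adjusted p 0.0561).

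The labels do not say that the numbers 1 and 2 pair the libraries. Same-numbered libraries deviated with correlations across genes of -0.125 for Cis Stat6 KO with WT, 0.0685 for Cis Stat6 KO with Cis KO and -0.0854 for Cis KO with WT. With 2 libraries per group, such correlations cannot show whether libraries were paired. With a replicate block 0 members were called in each comparison, and 12, 28 and 24 of all genes (Cis Stat6 KO against WT, Cis Stat6 KO against Cis KO, Cis KO against WT) against 22, 60 and 46 without it. With the numbers of Cis Stat6 KO exchanged, chosen after seeing the data, a replicate block gave 14, 32 and 24. In the same order all genes called were 317, 1540 and 544 in DESeq2, 385, 1840 and 1021 without a filter, 277, 5 and 6 with only the 2 groups compared, 52, 191 and 74 with log2(FPKM + 1), 1, 2 and 2 with that and no filter, 35, 99 and 59 with log2(FPKM + 0.1), and 470, 23 and 38 in limma-voom with quality weights. They ranged over 0 to 350, 4 to 5999 and 3 to 5349 when 1 library was left out, with the highest of the last 2 ranges without Cis KO replicate 1. Few counts of Car9 in WT (7 and 17) limit its fold change, and 2 libraries per group limit every test.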

Other observations

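Over the 35 tested members, Cis KO replicate 2 held the highest CPM of all 6 libraries for 13 members and the lowest for 11. Each other library held the highest for 2 to 8 members and the lowest for 2 to 8.

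The levels of Eno1 and its copy Eno1b varied between the libraries. Division of reads between the 2 genes cannot be told apart here from differences in expression. Eno1b had 28.6 and 101 CPM in Cis Stat6 KO, 172 and 184 in Cis KO, and 119 and 153 in WT, and Eno1 had 482 and 369 in Cis Stat6 KO, 315 and 664 in Cis KO, and 395 and 350 in WT. The library with the fewest Eno1b reads, Cis Stat6 KO replicate 1, was the highest in Eno1 but for Cis KO replicate 2. That library was the highest in both genes.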
